A study of Mus musculus with 6 samples.

Results

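Messenger RNA levels of 8 genes for receptors and an adhesion molecule of blood and lymph vessel endothelium were compared between mouse testis, epididymis and adipose stromal vascular fraction (SVF). The genes were Flt1, Kdr, Flt4, Tek, Tie1, Ednrb, Lyve1 and Pecam1. They were selected on their annotated symbols and with earlier results of these same ratios known, so all values below are a description and none is tested. Each of the 8 was measured by 1 probe, and together they are 8 of 18545 named genes. SVF is what remains of dissociated fat once the adipocytes are removed, among it vascular, stromal and immune cells. The samples were total RNA from 3 sources that the labels name only by tissue, with no treatment or genotype stated and no strain, age, fat depot or dissociation step given. Each pair of tissues was hybridised on 2 two-channel arrays with the dyes exchanged, which gave 6 arrays and 3 dye swaps, and each array carried 1 Cy5 and 1 Cy3 sample. The series names 1 RNA sample per tissue, and it does not say whether animals were pooled.

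Blood vessels grow and are maintained through vascular endothelial growth factor (VEGF) and angiopoietin signalling. VEGF-A binds the receptor tyrosine kinases FLT1 and KDR, and VEGF-C and VEGF-D bind FLT4, which is best known on lymphatic endothelium. Angiopoietins bind TEK, also called TIE2, and TIE1 is its partner receptor, long described as an orphan. EDNRB is the type B endothelin receptor, LYVE1 is a hyaluronan receptor of lymphatic endothelium and of some resident macrophages, and PECAM1 is an adhesion molecule of endothelial junctions that leukocytes and platelets also carry.

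Of the 8 genes, 7 were lower in testis than in SVF on both arrays and all 8 were lower in epididymis than in SVF on both arrays. Ednrb and Lyve1 had the largest differences, at 109-fold and 104-fold between SVF and testis, followed by Tek at 18.1-fold. Flt1, Kdr and Pecam1 differed by 2.14-fold to 3.05-fold between the same tissues. Flt4 had another order, with its highest level in testis and its lowest in epididymis, but it was not called between testis and SVF. Values are log2 ratios given as the mean of the 2 arrays ± SD (n = 2 hybridisations of the same RNAs), an error that leaves out differences between animals. The deposited logarithms were read as log2 and the numerator as the Cy5 tissue, which is likely but not stated in the labels, and every fold and direction here rests on that reading. In such RNA of mixed cells, fewer cells of a type and less RNA per cell cannot be told apart. The SVF ratios also set a fraction without adipocytes against organs.

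A gene was called higher in a tissue when its ratio was at least 2-fold (a log2 ratio of 1) on each array of a dye swap and both arrays had the same sign. In testis against SVF, 6 of the 8 genes were called higher in SVF, where 16.0% of all named genes were, and none was called higher in testis, where 20.7% were. The median of the 8 ratios was -2.15, and that of all named genes was 0.004. In epididymis against SVF, 6 of 8 were again called higher in SVF, against 8.68% of named genes, and none was called higher in epididymis, against 10.2%. The median there was -2.23, and that of all named genes was 0.071. In epididymis against testis, 2 genes were called higher in epididymis and 1 in testis, against 14.3% and 18.0% of named genes, with a median of 0.45. The 3 comparisons share RNA samples, and both SVF comparisons use the same SVF RNA. Tek, Tie1, Ednrb, Lyve1 and Pecam1 were called higher in SVF than in both other tissues, a pattern held by 6.95% of named genes. Lyve1 and Ednrb were also called higher in epididymis than in testis, and this full order was held by 2.07% of named genes.

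**Figure D1:**
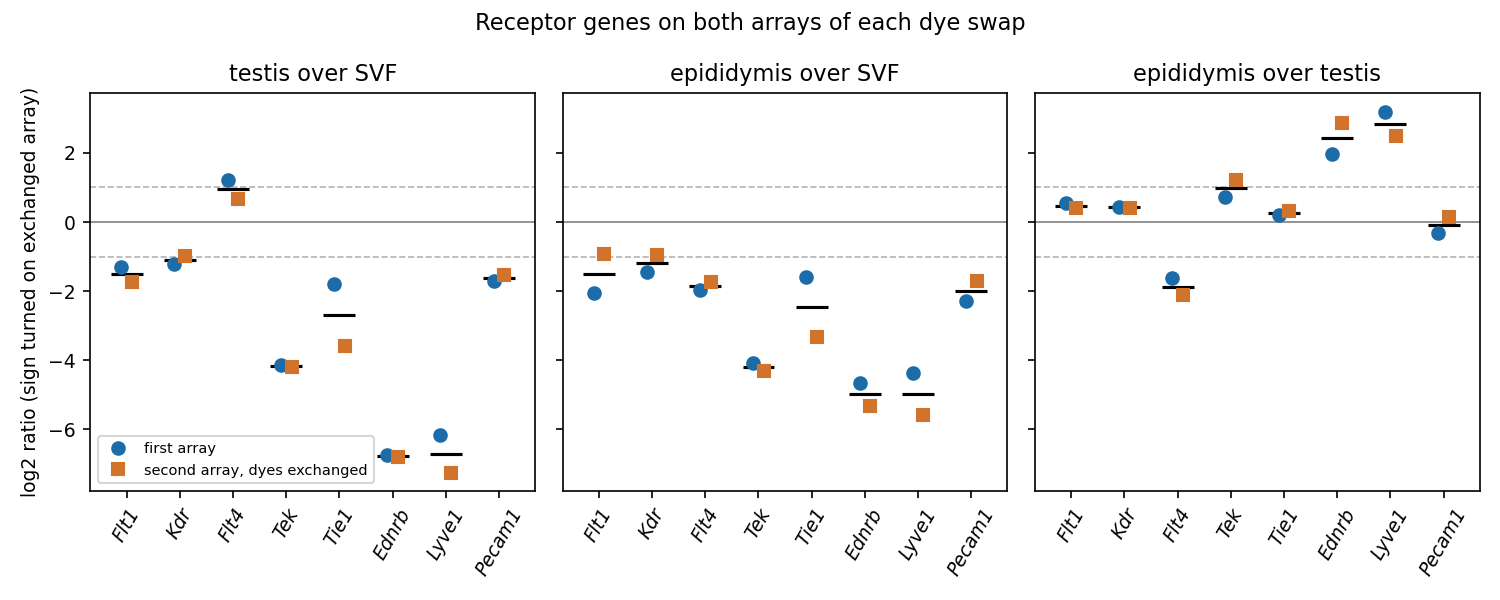
Log2 ratios of the 8 genes (y axis) on the first array (circles) and the dye-exchanged second array (squares) of each dye swap, 1 panel per comparison, with the mean as a bar and the 2-fold lines dashed. Ednrb and Lyve1 lie lowest in both SVF comparisons, Flt4 alone lies above 0 in testis over SVF, and Tie1 shows the widest gap between its arrays in both SVF panels, while in epididymis over testis Ednrb does.

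The VEGF receptors FLT1 and KDR bind the same ligand. For Flt1 the log2 ratio of testis over SVF was -1.30 and -1.73 on the 2 arrays, a mean of -1.52 ± 0.31 or 2.86-fold less in testis. For epididymis over SVF it was -2.06 and -0.93, a mean of -1.50 ± 0.80. The second value falls short of the 2-fold line, so Flt1 was not called in that comparison although both arrays had the same sign. Kdr, the main signalling receptor for VEGF-A, had testis ratios of -1.22 and -0.98 (mean -1.10 ± 0.17). Its epididymis ratios over SVF were -1.44 and -0.94 (mean -1.19 ± 0.35). Kdr thus missed the 2-fold call in both SVF comparisons because the second array fell just short of it. Between epididymis and testis, Flt1 stood at 0.56 and 0.40 (mean 0.48 ± 0.11) and Kdr at 0.44 and 0.40 (mean 0.42 ± 0.03). Both ratios were above 0 on both arrays, and neither gene reached 2-fold.

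Flt4, whose product is the receptor for VEGF-C and VEGF-D, departed from the other 7 genes in testis. Its ratios of testis over SVF were 1.23 and 0.66, a mean of 0.94 ± 0.40, and no other member was above 0 on either array of that swap. Its ratios of epididymis over SVF were -1.96 and -1.73, a mean of -1.84 ± 0.16 or 3.58-fold less in epididymis. Its ratios of epididymis over testis were -1.61 and -2.12, a mean of -1.87 ± 0.36 or 3.64-fold less in epididymis. Flt4 was the only one of the 8 genes called higher in testis than in epididymis. It was called higher both in testis and in SVF than in epididymis, as were 0.927% of named genes. Testis and SVF differed for Flt4 by less than 2-fold on the second array and in the mean, so these neighbours in the order of levels did not meet the 2-fold rule.

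The 250 bases before the annotated start of Kdr and Flt4 are shown because these VEGF receptor genes differed in sign in testis over SVF. Neither was called in that comparison. They come from RefSeq (mouse build GRCm38.p6), which listed promoter windows for 6 of the 8 genes, all but Lyve1 and Pecam1. The Kdr window is chr5:75978456-75978705 on the minus strand and the Flt4 window is chr11:49609429-49609678 on the plus strand, both 5′ to 3′. Capitals mark the letters AGGAAG of an ETS core or CCACCC of a KLF site on either strand, which are motifs bound by factor families active in endothelium.
Kdr: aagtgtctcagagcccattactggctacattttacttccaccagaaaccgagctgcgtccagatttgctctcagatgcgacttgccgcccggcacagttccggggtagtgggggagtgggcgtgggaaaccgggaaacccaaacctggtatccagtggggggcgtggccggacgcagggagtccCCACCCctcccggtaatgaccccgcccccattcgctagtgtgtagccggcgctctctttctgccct
Flt4: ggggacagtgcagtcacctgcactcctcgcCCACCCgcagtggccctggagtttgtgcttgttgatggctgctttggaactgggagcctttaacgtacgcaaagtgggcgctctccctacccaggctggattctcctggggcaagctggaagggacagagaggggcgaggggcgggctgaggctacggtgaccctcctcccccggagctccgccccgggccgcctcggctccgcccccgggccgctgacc
Each window holds CCACCC in 1 place and AGGAAG in none. GC content was 61.6% for Kdr and 68.4% for Flt4, and the median of all 32851 windows was 52.4%. The letters CCACCC stood in 4 of the 6 member windows and in 28.1% of all windows, AGGAAG in 2 of 6 and in 29.5%, and the GATA letters AGATAA in 0 of 6 and in 9.99%. The searched motifs do not overlap one another. A match is a description of these letters and does not show binding.

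Among ligands and co-receptors of this family, 6 of 7 measured genes were called higher in SVF than in testis (median -2.26) and 3 of 7 higher in SVF than in epididymis (median -1.47, single arrays -2.79 and -0.57). In epididymis against testis, 5 of 7 were called higher in epididymis (median 1.18). Vegfc and Vegfd, the ligands of FLT4, stood at -3.71 ± 0.02 and -3.74 ± 0.28 in testis over SVF. They stood at -3.27 ± 0.09 and -3.19 ± 0.53 in epididymis over SVF, and at 1.83 ± 0.47 and 1.33 ± 0.15 in epididymis over testis. Both ligand genes were thus lowest in testis, where Flt4 was highest though not called against SVF. Nrp1, a co-receptor, stood at -3.56 ± 0.02 in testis over SVF and at -2.88 ± 0.18 in epididymis over SVF. The ratios of Vegfa were -1.26 ± 0.11, 0.22 ± 0.21 and 1.21 ± 0.14 in the order testis over SVF, epididymis over SVF and epididymis over testis. The 2 probes of Vegfa disagreed, with means of -0.19 and 2.61 in epididymis over testis, so its call there rests on 1 probe. Vegfb, a ligand of FLT1, was called higher in SVF (-1.37 ± 0.38) and in epididymis (1.18 ± 0.11) than in testis. Pgf, which binds FLT1, was higher in epididymis than in testis (1.17 ± 0.15) and at -0.55 ± 0.17 in testis over SVF. Nrp2 is a co-receptor of FLT4, and its 2 probes also disagreed, with means of 0.38 and -3.31 in epididymis over SVF.

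Tek and Tie1 encode the paired receptors of the angiopoietin pathway. Tek had testis ratios over SVF of -4.14 and -4.21, a mean of -4.17 ± 0.05, and epididymis ratios over SVF of -4.09 and -4.32, a mean of -4.20 ± 0.16. Its level in SVF was 18.1-fold that in testis and 18.4-fold that in epididymis, and the arrays of each swap differed little. Between epididymis and testis its ratios were 0.72 and 1.22 (mean 0.97 ± 0.35), which was not called. Tie1 was less even, with testis ratios over SVF of -1.80 and -3.58, a mean of -2.69 ± 1.26 or 6.46-fold. Its epididymis ratios over SVF were -1.60 and -3.34, a mean of -2.47 ± 1.23 or 5.53-fold. It was called higher in SVF in both comparisons, and in both the array with SVF in Cy5 gave the larger difference. The mean of the 2 deposited ratios of a swap, the part that follows the dye, was 0.89 and 0.87 for Tie1 in the SVF swaps, larger than for 93.8% and 92.2% of named probes, and -0.06 in the swap without SVF. Tie1 stood at 0.21 and 0.32 in epididymis over testis (mean 0.27 ± 0.08).

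The windows before the starts of Tek and Tie1 are shown for the same comparison of letters, since both genes were higher in SVF than in both organs but to a different extent. The Tek window is chr4:94739039-94739288 on the plus strand and the Tie1 window is chr4:118489850-118490099 on the minus strand, from the same RefSeq build, 5′ to 3′ and with the same capitals.
Tek: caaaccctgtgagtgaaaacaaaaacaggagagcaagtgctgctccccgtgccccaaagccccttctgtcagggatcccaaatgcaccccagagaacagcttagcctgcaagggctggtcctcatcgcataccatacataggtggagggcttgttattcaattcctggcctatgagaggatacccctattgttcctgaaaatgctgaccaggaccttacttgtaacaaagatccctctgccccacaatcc
Tie1: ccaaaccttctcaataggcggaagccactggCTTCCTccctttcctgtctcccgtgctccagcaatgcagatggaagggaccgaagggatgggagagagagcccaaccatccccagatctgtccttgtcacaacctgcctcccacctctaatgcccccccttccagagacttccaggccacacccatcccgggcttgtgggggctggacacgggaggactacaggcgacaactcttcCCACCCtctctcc
The Tek window holds none of the searched letters. The Tie1 window holds AGGAAG once, on the opposite strand, and CCACCC once, and GC content was 51.2% for Tek and 60.4% for Tie1.

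Of 4 genes for angiopoietins and the phosphatase of their receptor, 2 were called higher in SVF in each SVF comparison (medians -1.57 and -1.32), and none was called between epididymis and testis (median 0.35). Ptprb, which encodes that phosphatase, stood at -3.20 ± 0.16 in testis over SVF and at -3.97 ± 0.29 in epididymis over SVF. The antagonistic ligand gene Angpt2 stood at -1.89 ± 0.50 and -1.71 ± 0.23 in the same order. Angpt1, the main activating ligand, was at -1.26 ± 0.40 and -0.94 ± 0.34, and Angpt4 at -0.88 ± 0.66 and -0.35 ± 0.34. Neither of these was called, and between epididymis and testis Angpt1 stood at 0.64 ± 0.11. The 2 probes of Angpt1 disagreed, with means of -0.90 and -1.61 in testis over SVF and of -0.44 and -1.43 in epididymis over SVF. The probe with the larger differences alone met the 2-fold rule, toward SVF in both comparisons.

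Ednrb and Lyve1 had the largest differences between SVF and testis of the 8 genes, and their order depends on the estimate. The mean of the arrays puts Ednrb first, while the second array and the least-squares fit over all 6 arrays (-6.98 for Ednrb and -7.08 for Lyve1) put Lyve1 first. For Ednrb the ratios of testis over SVF were -6.74 and -6.79, a mean of -6.77 ± 0.04, the 5th lowest of all named genes. Its ratios of epididymis over SVF were -4.65 and -5.33, a mean of -4.99 ± 0.48 or 31.8-fold less in epididymis. Its ratios of epididymis over testis were 1.97 and 2.88, a mean of 2.42 ± 0.64 or 5.37-fold more in epididymis. Ednrb was called in each comparison, in the order SVF, epididymis, testis. Of the 5 other endothelin genes measured, Edn1, the endothelial ligand, stood at -3.45 ± 0.14 in testis over SVF, at -1.42 ± 0.73 in epididymis over SVF and at 1.16 ± 0.03 in epididymis over testis. It was called in the first and the last of these. The converting enzyme gene Ece1 was called higher in SVF than in testis (-1.28 ± 0.26), but its 2 probes disagreed with means of 0.04 and -2.59. Edn2, Edn3 and Ece2 were called in no comparison, and the arrays of Edn2 had opposite signs in testis over SVF (-0.23 ± 1.97). None of these 5 other genes was called between epididymis and SVF (list median 0.05, single arrays 0.80 and -0.94). The 2 probes of Ece1 disagreed there too, with means of 0.60 and -1.91. EDNRB also acts in melanocyte precursors and other neural crest cells. Of 7 measured markers of melanocytes and Schwann cells none was called higher in SVF, with ranges of -0.67 to 3.17 in testis over SVF and -0.50 to 2.51 in epididymis over SVF. Mitf was averaged over 4 probes, and a single one of them met the 2-fold rule toward SVF in both comparisons (means -1.50 and -1.18). Sox10 was at -0.03 ± 0.23 and -0.01 ± 0.77, while Dct was called higher in testis (3.17 ± 1.09) and Pmel in both organs (2.22 ± 0.77 and 2.51 ± 0.44).

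Lyve1 had ratios of testis over SVF of -6.16 and -7.25, a mean of -6.70 ± 0.77, the 7th lowest of all named genes. Its ratios of epididymis over SVF were -4.37 and -5.57, a mean of -4.97 ± 0.85 or 31.4-fold less in epididymis. Its ratios of epididymis over testis were 3.20 and 2.50, a mean of 2.85 ± 0.49 or 7.19-fold more in epididymis. Both arrays of each swap thus gave Lyve1 the order SVF, epididymis, testis. Of the other hyaluronan and scavenger receptor genes, Stab1 stood at -2.93 ± 0.01 in testis over SVF and at -2.74 ± 0.01 in epididymis over SVF. Stab2, a clearance receptor of sinusoidal endothelium, went the other way in testis, with 1.97 ± 0.83 over SVF, -1.21 ± 0.76 in epididymis over SVF and -1.84 ± 0.36 in epididymis over testis. Cd44 (-0.87 ± 0.16 and -0.45 ± 0.98) and Hmmr (-0.18 ± 0.06 and 0.23 ± 0.04) were not called against SVF. Since LYVE1 and PECAM1 are also carried by leukocytes, the macrophage and leukocyte markers are given beside them. Of 13 measured, 10 were called higher in SVF than in testis (median -3.99, range -5.54 to 0.13), 11 higher in SVF than in epididymis (median -3.15, range -4.74 to 0.59) and 4 higher in epididymis than in testis (median 0.99, range -0.37 to 2.07). Ptprc, the pan-leukocyte gene, stood at -5.54 ± 0.87 in testis over SVF, and Cd163 and Mrc1 at -4.69 ± 0.20 and -4.74 ± 0.42 in epididymis over SVF. The part of these cells in the Lyve1 and Pecam1 ratios was not tested.

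Pecam1 had testis ratios over SVF of -1.70 and -1.52, a mean of -1.61 ± 0.12 or 3.05-fold less in testis. Its epididymis ratios over SVF were -2.30 and -1.70, a mean of -2.00 ± 0.42 or 3.99-fold less in epididymis. Both were called. In epididymis over testis it stood at -0.33 and 0.14, a mean of -0.09 ± 0.33, so the 2 arrays placed the organs in opposite order. Platelets carry PECAM1 too, and of 6 platelet markers 3 were called higher in SVF than in testis and 2 higher in SVF than in epididymis (medians -0.97 and -0.56). Itga2b was called the other way in epididymis, at 2.03 ± 0.69 over SVF and 2.73 ± 0.62 over testis, and stood at -1.47 ± 0.32 in testis over SVF. Pf4 stood at -6.02 ± 0.66 and -5.54 ± 0.49, Ppbp at -2.80 ± 0.05 and -3.19 ± 0.26 and Gp9 at 0.82 ± 0.43 and 0.03 ± 0.47 in these comparisons. The part of platelets in the Pecam1 ratio was not tested.

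A least-squares fit of the 3 tissue levels to all 6 arrays gave the order SVF, epididymis, testis for Tek, Flt1, Kdr, Lyve1, Ednrb and Tie1. It gave SVF, testis, epididymis for Pecam1 and testis, SVF, epididymis for Flt4. By this fit Lyve1 in testis was at 0.741% of its SVF level and in epididymis at 4.12%, and Ednrb at 0.791% and 3.66%. Tek stood at 4.39% and 6.84%, Tie1 at 15.3% and 18.3%, Pecam1 at 30.6% and 26.8%, Flt1 at 31.5% and 39.4%, and Kdr at 41.5% and 49.4%. Flt4 stood at 156% in testis and 34.5% in epididymis. Ranked by their fitted SVF level above the mean of the 3 tissues, Ednrb was 13th and Lyve1 14th of all named genes, Tek 115th, Tie1 662nd, Pecam1 1238th, Flt1 1565th, Kdr 2180th and Flt4 4697th. No order of epididymis and testis met the 2-fold rule for Tek, Flt1, Kdr, Tie1 and Pecam1. The direct ratio of epididymis over testis for Tek was 0.97, and the ratio taken through SVF was -0.03. For Kdr these were 0.42 and -0.09, for Flt1 0.48 and 0.02, for Tie1 0.27 and 0.22, and for Pecam1 -0.09 and -0.39. The routes thus differed in sign for Tek and Kdr and shared it for Flt1, Tie1 and Pecam1, although the arrays of the direct swap differed in sign for Pecam1. For Lyve1 they were 2.85 and 1.73, for Ednrb 2.42 and 1.78 and for Flt4 -1.87 and -2.79, so for these genes both routes gave the same order and differed in size. The gap between the routes, which is 0 without error, was positive for all 8 genes, from 0.04 for Tie1 to 1.11 for Lyve1, with a median of 0.58. Over all named genes its median was 0.0074, it was positive for 51.1%, and its median size regardless of sign was 0.23. The gaps of Lyve1, Tek and Flt4 were larger in size than those of 94.0%, 92.4% and 90.8% of named genes. For Pecam1, Flt1, Kdr and Ednrb these shares ran from 58.2% to 83.0%, and for Tie1 the share was 11.4%.

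**Figure D2:**
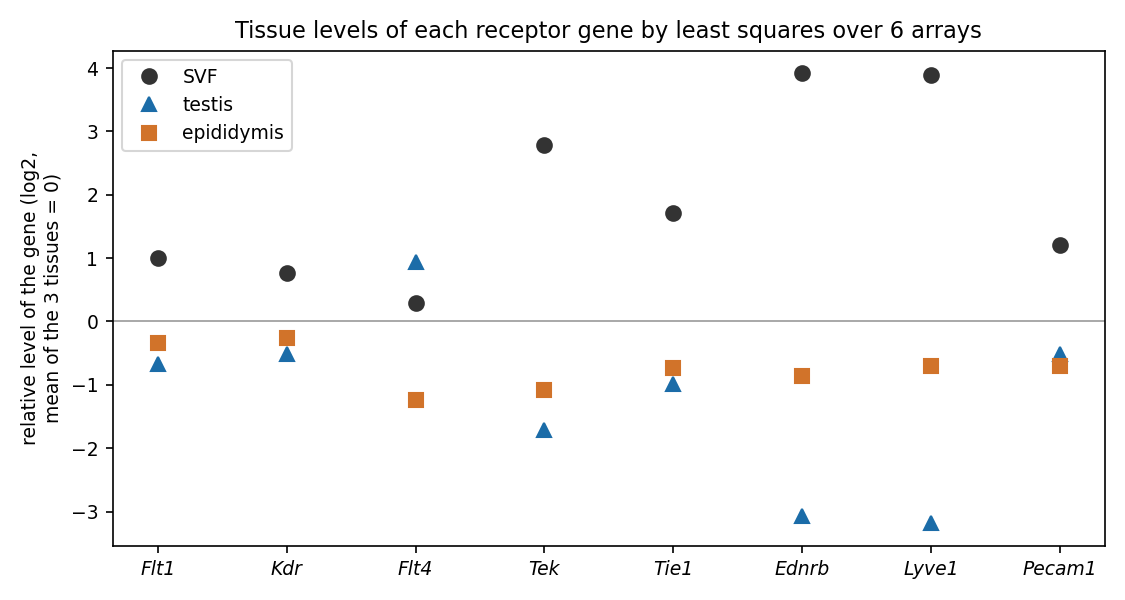
Relative level of each gene (y axis, log2, mean of the 3 tissues at 0) in SVF (circles), testis (triangles) and epididymis (squares) by least squares over 6 arrays; levels are not comparable between genes. SVF lies highest for every gene but Flt4, and testis and epididymis lie close together except for Flt4, Ednrb and Lyve1.

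**Figure D3:**
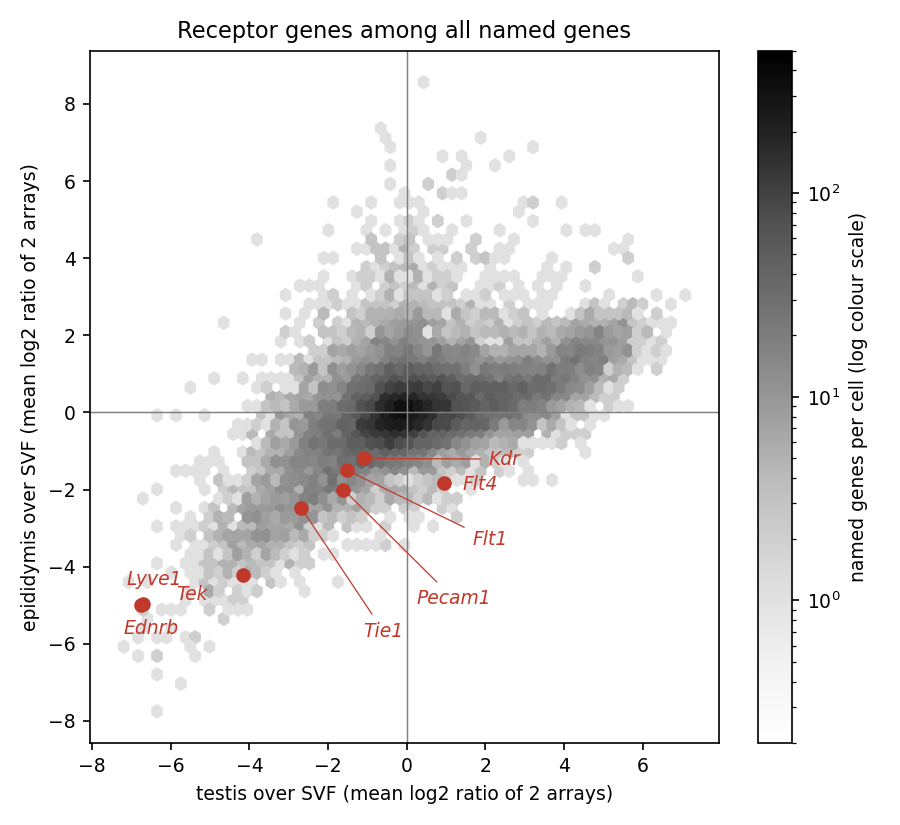
Mean log2 ratio of testis over SVF (x axis) against epididymis over SVF (y axis) for 18545 named genes, with grey cells shaded by gene number on a log scale and the 8 genes as red points. Both axes share the SVF RNA; Ednrb and Lyve1 coincide near the lower left edge, and Flt4 stands right of 0 and below it.

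The genes most alike each member were taken as those with the smallest root mean square (RMS) difference over the 6 arrays, in log2 units, from among all named genes. With 3 tissues this measure reflects few independent contrasts. Closest to Tek was S1pr1, an endothelial sphingosine phosphate receptor gene (RMS 0.29), then Pnliprp2 (0.33). Closest to Flt1 were Pla2g2e (0.22) and Cdkn1c (0.25), to Kdr P2ry13 (0.21) and Cd200 (0.22), and to Pecam1 Pde1b (0.23) and Ifi27 (0.24). Closest to Tie1 were P2ry12 (0.36) and Sulf1 (0.37), and to Flt4 Sap30 (0.32) and Dgkd (0.39). Lyve1 had Gdf10 (0.53) and Ednrb (0.62) as its nearest genes, and Ednrb had Nfkbiz (0.50) and Lyve1 (0.62). Within the 8 genes the most alike pair was Flt1 and Kdr (0.41), and the least alike was Flt4 and Lyve1 (5.51).

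Other endothelial surface genes had a median near that of the 8 receptors. Of 22, 17 were called higher in SVF than in testis (median -2.63) and 17 higher in SVF than in epididymis (median -2.24), and 5 were called higher in epididymis than in testis (median 0.64). Procr, the endothelial protein C receptor gene, stood at -5.70 ± 0.76 and -5.12 ± 1.28 in testis and epididymis over SVF. Thbd, the thrombomodulin gene, stood at -5.23 ± 0.24 and -4.22 ± 0.08, and S1pr1 at -4.02 ± 0.57 in epididymis over SVF. Between epididymis and testis the sialomucin gene Emcn stood at 1.90 ± 0.79, Ecscr at 3.07 ± 1.29 and Cd34 at 2.89 ± 0.85. Cd34 is also counted among the stromal markers of SVF below. Cdh5, Vwf, Clec14a, Icam2 and Plvap, named after their values were seen, were called in neither SVF comparison. Of these, Cdh5, the vascular endothelial cadherin gene, stood at -0.49 ± 0.43 and -0.53 ± 0.48, and Vwf, the von Willebrand factor gene, at -0.92 ± 0.00 and -0.31 ± 0.73. Other endothelial genes of the same list had ratios as large as that of Tek, with S1pr1 at -4.51 ± 0.23, Emcn at -4.89 ± 0.50 and Ecscr at -4.11 ± 0.52 in testis over SVF. Whether the probes with small ratios were above background was not examined.

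**Figure D4:**
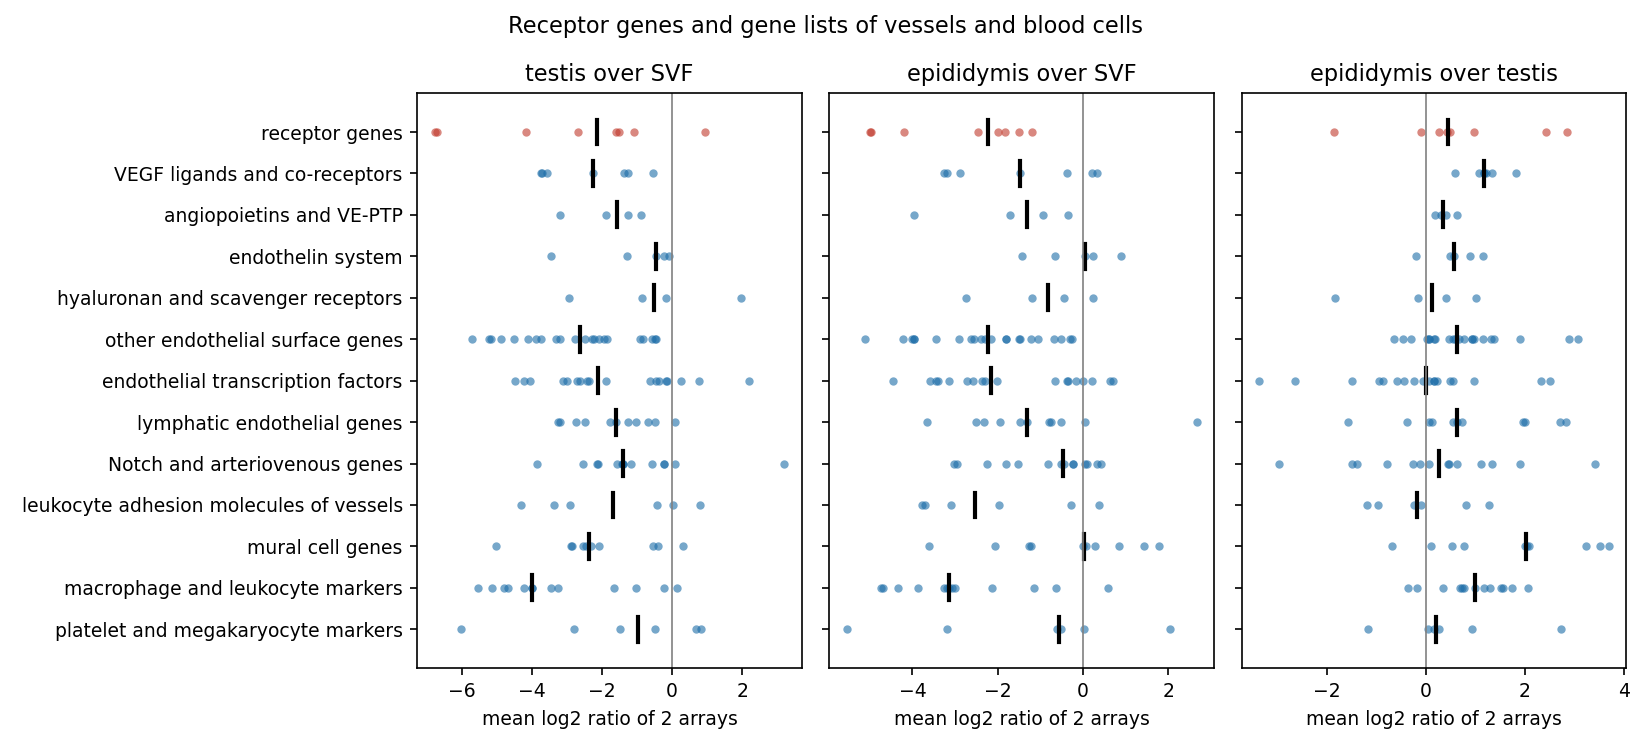
Mean log2 ratio (x axis) of each measured gene (points) of the 8 receptor genes (red) and of 12 gene lists (blue), with the list median as a bar, 1 panel per comparison. The receptor median lies at -2.15, -2.23 and 0.45, and mural cell genes have a median of -2.38 in testis over SVF and 2.02 in epididymis over testis.

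Of 18 transcription factor genes of endothelium, 10 were called higher in SVF in each SVF comparison (medians -2.12 and -2.16), and Etv2 was called higher in testis than in SVF (2.18 ± 0.52). The SOX factor gene Sox7 stood at -4.49 ± 0.27 and -4.46 ± 0.61 in testis and epididymis over SVF, and Lmo2 at -4.06 ± 0.24 and -3.60 ± 0.34. Ets2 stood at -4.23 ± 0.45 in testis over SVF, and the flow-responsive gene Klf2 at -3.46 ± 0.15 in epididymis over SVF. Erg, Fli1, Sox18, Ets1, Elk3 and Epas1 of the same list were called in neither SVF comparison. In testis and epididymis over SVF, Erg stood at 0.25 ± 1.00 and -0.36 ± 1.71, with arrays of opposite sign in both. Fli1 stood at -0.47 ± 0.40 and -0.008 ± 0.55, and Sox18 at -0.37 ± 0.24 and -0.37 ± 0.29. Between the organs, Ets2 (2.51 ± 0.36) and Gata2 (2.32 ± 0.36) were called higher in epididymis, and Klf4 (-3.37 ± 0.82) and Klf2 (-2.64 ± 2.25) higher in testis (list median 0.0005). Of 11 lymphatic endothelial genes, 8 were called higher in SVF than in testis (median -1.60) and 4 higher in SVF than in epididymis (median -1.31, single arrays -0.64 and -1.31). Ccl21a, the lymphatic chemokine gene, stood at -2.73 ± 0.56 and -2.52 ± 0.28 and at 1.96 ± 0.43 in epididymis over testis. Pdpn, the podoplanin gene, stood at -3.21 ± 0.18 in testis over SVF and at 2.71 ± 0.10 in epididymis over testis, and Nts at -3.25 ± 0.71 and -3.65 ± 0.29 against SVF. Prox1, the factor that specifies lymphatic endothelium, was called in no comparison and stood at 0.08 ± 0.49 and -0.51 ± 1.17 against SVF. Mmrn1 was called higher in SVF (-2.32 ± 1.26) and in testis (-1.57 ± 0.12) than in epididymis, as Flt4 was. Sema3d was higher in epididymis than in SVF (2.66 ± 0.68) and than in testis (2.83 ± 0.13).

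Of 14 Notch and arteriovenous genes, 9 were called higher in SVF than in testis (median -1.41) and 5 higher in SVF than in epididymis (median -0.48, single arrays -0.47 and -0.73). Notch1 stood at -3.85 ± 0.30 in testis over SVF and at 3.42 ± 0.06 in epididymis over testis. Its ligand gene Jag1 was higher in testis than in SVF (3.20 ± 0.74) and than in epididymis (-2.98 ± 1.01). Efnb2, an arterial marker, stood at -2.15 ± 0.02 in testis over SVF and at 1.90 ± 0.14 in epididymis over testis. In epididymis over SVF, Notch1 (-0.51 ± 0.32) and Efnb2 (-0.24 ± 0.29) were not called, and Hey1 and Apln stood at -3.03 ± 0.28 and -2.96 ± 0.35. Hey1 (-1.50 ± 0.42) and Apln (-1.39 ± 0.05) were called higher in testis than in epididymis, against the list median of 0.26. Dll4 and Gja5 were called in no comparison. Of 6 leukocyte adhesion molecules of vessels, 3 were called higher in SVF in each SVF comparison (medians -1.68 and -2.54), namely Icam1 (-4.31 ± 0.19 and -3.70 ± 0.31), Selp (-3.36 ± 0.36 and -3.10 ± 0.14) and Vcam1 (-2.91 ± 0.01 and -3.79 ± 0.42). Of 10 mural cell genes, 7 were called higher in SVF than in testis (median -2.38) and 6 higher in epididymis than in testis (median 2.02). Against SVF, 3 were lower and 2 higher in epididymis (median 0.03), with Pdgfrb at -3.62 ± 0.20 and the smooth muscle gene Myh11 at 1.77 ± 0.54. The mural genes Rgs5, Cspg4 and Des were called in no comparison. In testis and epididymis over SVF, Rgs5 stood at 0.31 ± 0.43 and -0.0005 ± 0.07, and Cspg4 at -0.40 ± 0.12 and 0.067 ± 0.04.

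The tissues carried their own markers. Of 8 germ cell markers, 7 were called higher in testis than in SVF (median 5.55) and 7 higher in testis than in epididymis (median -4.02), and 6 were called higher in epididymis than in SVF (median 2.00). All 7 measured markers of the epididymal duct were called higher in epididymis than in SVF (median 6.88) and than in testis (median 5.74). All 8 stromal markers of SVF were called higher in SVF than in testis (median -4.00) and 6 higher in SVF than in epididymis (median -2.48). With the sign of the exchanged array turned, Pearson's r between the arrays of a swap was lowest in epididymis over SVF, at 0.71, against 0.81 in epididymis over testis and 0.88 in testis over SVF, across genes that are not independent.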

How the data were processed

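The values deposited by the authors, 25344 probes on 6 arrays with none missing, were read as log2 of Cy5 over Cy3. How the authors made these log ratios (base, direction, background, normalization) is not given in the sources. The direction is likely, since titles name the Cy5 tissue first and 7 of 8 germ cell markers were then higher in testis. The arrays' number limits the precision. Whether a probe was above background in a tissue was not examined, as spot intensities were not used here.

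Probes were named by the annotation of the platform, updated by gene ID (20456 probes) or symbol (220) to RefSeq GRCm38.p6. For 248 more the annotated name was kept. Left unnamed were 158 with a symbol of another species, 30 listing several genes and 4232 absent from the annotation. A gene's value was the mean of its probes. The sign of dye-exchanged arrays was turned. With 1 RNA per tissue no test between tissues was made and no p-value is given. The number of RNA samples comes from the series' design text, and the 2 arrays of a swap are repeat hybridisations.

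The 8 genes and the 16 gene lists, of which 150 of 158 entries were measured, were chosen with earlier results of these data known. Ptprb, Cd34 and Thy1 each stood in 2 lists. Named list genes were, per list and comparison, up to 3 called with the list median and up to 2 against it, and others where a count or role needed them, chosen after their values were seen. The alternatives were median centring, the least-squares loop estimate, 2-fold on the mean, 4-fold on both arrays, probes taken singly, each array left out and only genes with values on all 6 arrays, and reading the values as natural logarithms was added after seeing the data. The size rule and the loop estimate were run on simulated dye swaps, where the loop estimate returned the planted mean differences. These were planted in SVF only, with normal noise, so the simulation does not show how either performs on the real arrays. Python 3.11.15, pandas 2.3.3, numpy 2.4.6 and matplotlib 3.10.9 were used.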

Additional observations from a re-analysis of the deposited data

Results flagged for a closer look

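Flt4 was higher in testis than in SVF on both arrays (mean log2 ratio 0.94) and lower in epididymis than in SVF on both arrays (-1.84), the only one of the 8 receptor genes with opposite signs on all arrays of these swaps. The difference itself was not tested, and Flt4 was called in epididymis only. Of 155 genes, the 8 and those of the lists, 20 had opposite signs on all these arrays, and 4 of them were called in both comparisons. The share of all named genes with such signs was not counted, so these counts do not show whether the pattern is common or rare. The lists also include markers chosen for testis and for the epididymal duct. In these 4, testis over SVF and epididymis over SVF stood at -2.45 and 1.77 for the smooth muscle gene Myh11 and at -2.89 and 1.43 for Tagln, another. They stood at -1.47 and 2.03 for the platelet integrin gene Itga2b and at -1.38 and 3.42 for the lipocalin gene Lcn8. Like Flt4, 3 genes were positive in testis and negative in epididymis, namely Stab2 (1.97 and -1.21), Dct (3.17 and -0.37) and Gp1bb (0.68 and -0.60). Among mural genes, Acta2 stood at -2.55 and 0.85, Des at -0.55 and 0.29 and Cspg4 at -0.40 and 0.067. Among other listed genes, Vegfa stood at -1.26 and 0.22, Pgf at -0.55 and 0.33, Hey2 at -1.43 and 0.41, Sema3d at -0.70 and 2.66 and Hmmr at -0.18 and 0.23. The opposite signs of Vegfa rest on 1 of its 2 probes, since the other had means of -0.42 and -0.20. The epididymal genes Lcn5 and Lcn9 stood at -0.86 and 3.48 and at -0.48 and 6.88, and the melanocyte and Schwann cell genes Mlana and S100b at -0.32 and 0.26 and at -0.21 and 0.34. None of these differences was tested.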

How the results depend on the processing

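Results rest on 1 RNA per tissue, and signal over background was not analysed here. Requiring 4-fold on both arrays left 3, 3 and 1 of the 8 genes called in testis over SVF, epididymis over SVF and epididymis over testis, against 19.7%, 6.34% and 14.6% of all named genes in either direction. With 2-fold on the mean or the loop estimate, Kdr was also called higher in SVF than in testis, and Flt1 and Kdr higher in SVF than in epididymis (7 and 8 of 8). The share of all named genes called was larger too, at 44.1% and 26.3% on the mean and 43.2% and 25.2% by the loop estimate, against 36.7% and 18.9%. Read as natural logarithms, an alternative chosen after seeing the data, the medians were -3.10, -3.22 and 0.65. The loop estimate gave a median of 0.29 in epididymis over testis. With 1 array left out, the medians ranged from -2.66 to -1.75, from -2.53 to -2.18 and from 0.40 to 0.50. Without the second arrays Flt4 was called higher in testis than in SVF, and Kdr higher in SVF than in testis. Flt1 and Kdr were then also called higher in SVF than in epididymis. All 8 genes were thus called in both SVF comparisons, against 47.4% and 31.7% of all named genes in either direction. Without the first array Tek was called higher in epididymis than in testis. Of the 24 ratios of the 8 genes, 7 moved by more than the spread between arrays under the loop estimate, and only Pecam1 in epididymis over testis changed sign when an array was left out (-0.33 and 0.14). For genes with several probes, the probe with the mean closest to 0 was also taken in place of the average. By it, Ece1 in testis over SVF (0.043) and Vegfa in epididymis over testis (-0.19) reversed, both of them called on the average. Ratios that were not called changed sign too, among them Ece1 (0.60) and Nrp2 (0.38) in epididymis over SVF. No paired analysis was possible because the result comes from no test.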
